A study of Triticum aestivum with 9 samples.

Results

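The cytokinin response regulators described here are the 7 wheat genes that the study's list of hormone signalling genes names A-ARR (5 genes) or B-ARR (2 genes), of 130542 genes in the expression table. All 7 identifiers were found in the table. The study placed genes on that list because they changed between DTT-treated and control leaves, so the values of that comparison chose the members and are given below as a description, without a test. The class names are those of the list. The annotation used here paired none of the identifiers with a symbol or a sequence, and the names were not checked in another way.

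Leaves were taken from seedlings of the wheat cultivar Yunong211 after 2 days in nutrient solution. The solution held 7.5 mM DTT with 25 μg/mL TUDCA (DTT + TUDCA), 7.5 mM DTT alone (DTT), or neither chemical (control). DTT is a reducing agent that hampers the formation of disulfide bonds and so the folding of proteins in the endoplasmic reticulum (ER), and TUDCA is a bile acid given as a chaperone for unfolded proteins. Each group had 3 libraries, each from an independent biological replicate, and plants given TUDCA alone were not analysed here.

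In Arabidopsis, where the pathway is best known, cytokinin binds histidine kinase receptors, and a phosphate group is handed on through phosphotransfer proteins to response regulators in the nucleus. B-type response regulators carry a DNA-binding domain and switch on target genes, among them those of the A-type response regulators. A-type response regulators lack that domain and damp the signal, so their transcripts are widely used as a readout of cytokinin signalling. Cytokinin dehydrogenases break the hormone down.

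Expression was given as FPKM, the fragments on a gene per kilobase of its transcript and relative to all fragments counted in the library, which allows levels of different genes to be compared. The libraries held 16334906 to 26760247 fragments on genes. Genes of the photosystem II oxygen-evolving complex, a leaf marker, were above 1 FPKM at 20 to 23 of 24 genes in every library. Their summed level was 5196 to 5999 FPKM in DTT + TUDCA, 5005 to 5066 FPKM in DTT and 9159 to 11357 FPKM in control, and the part of this difference in the results below was not tested. One library stood apart. Of 55137 genes at an average FPKM of 1 or more, 2387 differed over 4-fold between DTT + TUDCA replicate 2 and the average of replicates 1 and 3, whereas 136 to 345 genes did so in the other 8 libraries. Results of the members that it moved are given with and without it. The table holds RNA of whole leaves, in which fewer cells that express a gene and less RNA per cell cannot be told apart. Reads can fit homoeologous copies of a gene in more than one of the wheat subgenomes, and how such reads were divided is not given in the sources used here.

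The A-ARR genes were low in every DTT library, and 4 of the 5 were higher on average with TUDCA added, whereas both B-ARR genes lay below control with DTT and with DTT + TUDCA alike. Summed over the 5 genes, the A-ARR level was 8.44, 20.8 and 6.07 FPKM in DTT + TUDCA replicates 1, 2 and 3, against 2.96, 3.77 and 2.13 FPKM in the DTT libraries and 21.3, 25.5 and 19.6 FPKM in the control libraries. The 3 DTT + TUDCA libraries thus lay above all DTT libraries, and replicate 2 alone reached the range of the control libraries. Summed over the 2 genes, the B-ARR level was 3.26, 2.52 and 4.71 FPKM in DTT + TUDCA, 5.62, 3.11 and 3.22 FPKM in DTT and 6.81, 6.82 and 9.01 FPKM in control. Both treated groups overlapped for the B-ARR sum, and both lay below all control libraries.

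As mean ± SD, the A-ARR sum was 11.8 ± 7.89 FPKM in DTT + TUDCA, 2.96 ± 0.821 in DTT and 22.1 ± 3.06 in control (n = 3 each), and the B-ARR sum was 3.50 ± 1.11, 3.99 ± 1.42 and 7.55 ± 1.26 FPKM in the same groups. The A-ARR sum was 2.59, 8.23 and 1.29 times the B-ARR sum in the DTT + TUDCA libraries, 0.527, 1.21 and 0.662 times in the DTT libraries, and 3.12, 3.74 and 2.18 times in the control libraries. The ratio was therefore lower in each DTT library than in any other library. In DTT + TUDCA replicate 2, the library that stood apart, it was the highest of all 9, with the highest A-ARR sum and the lowest B-ARR sum of its group. The part of that library's other deviations in this result was not tested.

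**Figure D1:**
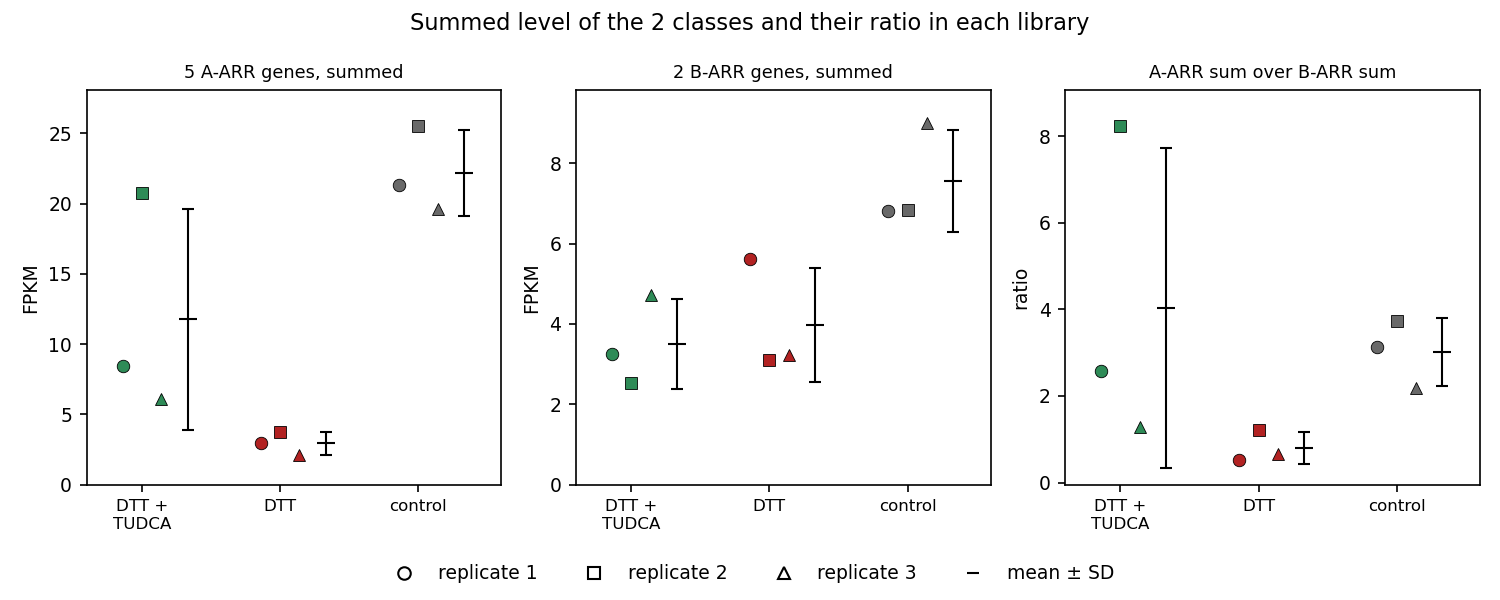
Summed FPKM of the 5 A-ARR genes (left) and of the 2 B-ARR genes (middle), and the A-ARR sum divided by the B-ARR sum (right), in the DTT + TUDCA, DTT and control libraries. Symbols are single libraries by replicate number and bars are the mean ± SD of 3 libraries. The A-ARR sum is 2.13 to 3.77 FPKM in DTT and 6.07 to 20.8 in DTT + TUDCA, whereas the B-ARR sums of DTT + TUDCA and DTT overlap.

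In control leaves the A-ARR genes spanned a wide range of levels. Traes_3DL_9DF0E96E5, with 7.94 ± 1.84 FPKM, and TRAES3BF042500030CFD_g, with 7.41 ± 0.664 FPKM, were the highest of the 7 genes and did not differ beyond their spread (SD, n = 3 each). The B-ARR gene Traes_3AL_9D2735F60 followed with 4.57 ± 0.479 FPKM, overlapping the A-ARR gene Traes_2AL_A26170C43 with 3.96 ± 0.321 FPKM. The B-ARR gene Traes_3DL_D82CA7827, with 2.98 ± 0.804 FPKM, overlapped the A-ARR gene Traes_2BL_BD5F3380A with 2.67 ± 0.256 FPKM. Traes_2BL_45DDBB56C, the fifth A-ARR gene, was far below the others with 0.158 ± 0.0205 FPKM. The identifiers place 3 A-ARR genes on the long arms of chromosomes 2A and 2B, one on 3B and one on the long arm of 3D, and the B-ARR genes on the long arms of 3A and 3D.

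Fold changes were fitted with limma on log2(scaled FPKM + 0.1) over the 78030 genes that reached an average FPKM of 0.1. A gene was counted as a differentially expressed gene (DEG) at an unadjusted P under 0.01 and a change of at least 2-fold, and P-values adjusted by Benjamini-Hochberg over all tested genes are given beside it. All members but Traes_2BL_45DDBB56C passed the minimum. Control and DTT libraries took part in the choice of the members, so only the DTT + TUDCA libraries are independent of it in the tests below.

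Among the A-ARR genes, Traes_2AL_A26170C43 had 0.568, 2.14 and 1.04 FPKM in the DTT + TUDCA replicates, 0.442, 0.582 and 0.380 FPKM in the DTT replicates and 3.89, 4.31 and 3.68 FPKM in the control replicates. Every treated library was below every control library, and DTT + TUDCA replicate 1 lay within the range of the DTT libraries. Its log2 fold change was -1.94 ± 0.41 (SE) in DTT + TUDCA vs. control (limma, Benjamini-Hochberg-adjusted P = 0.0206). Against DTT it was 1.13 ± 0.41 and short of the thresholds (limma, adjusted P = 0.649). The gene was thus a DEG against control but not against DTT. With DTT + TUDCA replicate 2 left out, the log2 fold changes were -2.42 ± 0.30 against control and 0.65 ± 0.30 against DTT.

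Traes_2BL_BD5F3380A, an A-ARR gene of chromosome 2B, had 0.307, 1.98 and 0.538 FPKM in the DTT + TUDCA replicates, 0.277, 0.332 and 0.0929 FPKM in the DTT replicates and 2.46, 2.96 and 2.59 FPKM in the control replicates. All treated libraries lay below control, and the treated groups overlapped. Its log2 fold change in DTT + TUDCA vs. control was -1.94 ± 0.57 and met the DEG thresholds, with an adjusted P above 0.05 (limma, adjusted P = 0.0664) and below it with the replicate number as a block (limma, adjusted P = 0.0481). It was a DEG in 10 of 19 alternative settings, in which the adjusted P ran from 0.00595 to 0.172. Against DTT the log2 fold change was 1.40 ± 0.57 (limma, adjusted P = 0.664). Leaving out DTT + TUDCA replicate 2, it was 0.70 ± 0.39 against DTT and -2.64 ± 0.39 against control.

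Traes_3DL_9DF0E96E5 was the A-ARR gene with the largest difference between the treated groups. It had 4.21, 11.7 and 3.22 FPKM in the DTT + TUDCA replicates, 1.10, 1.21 and 1.13 FPKM in the DTT replicates and 7.49, 9.96 and 6.37 FPKM in the control replicates. All DTT + TUDCA libraries were above all DTT libraries, and the highest exceeded every control library. The log2 fold change in DTT + TUDCA vs. DTT was 2.2 ± 0.43, and 0.156% of the tested genes had a higher one. It met the DEG thresholds but failed the correction over all genes (limma, adjusted P = 0.421). It met the thresholds in all 19 alternative settings that kept the unadjusted P, with log2 fold changes of 1.62 to 2.58 and adjusted P-values of 0.14 to 0.884. Without DTT + TUDCA replicate 2 the log2 fold change against DTT was 1.63 ± 0.24.

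Against control, the log2 fold change of Traes_3DL_9DF0E96E5 was -0.71 ± 0.43, with overlapping groups (limma, adjusted P = 0.319). Leaving out that replicate, it was -1.28 ± 0.24 and met the thresholds (limma, adjusted P = 0.016). That setting was the only one of 19 in which it was a DEG against control, and the adjusted P ran from 0.016 to 0.637 over them. The values of this gene rest on few fragments, 34, 80 and 21 in the DTT + TUDCA libraries, 9, 9 and 10 in the DTT libraries and 59, 73 and 68 in the control libraries. A count of 9 has an exact 95% Poisson interval of 4.12 to 17.1 fragments, and such intervals cover counting error only.

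TRAES3BF042500030CFD_g, the A-ARR gene of chromosome 3B, had 3.35, 4.98 and 1.27 FPKM in the DTT + TUDCA replicates, 1.15, 1.63 and 0.497 FPKM in the DTT replicates and 7.29, 8.13 and 6.82 FPKM in the control replicates. DTT + TUDCA replicate 3 lay within the range of the DTT libraries, and no treated library reached control. The log2 fold change in DTT + TUDCA vs. control was -1.56 ± 0.50 and just short of the thresholds (limma, adjusted P = 0.0842). With the replicate number as a block the same change met them (limma, adjusted P = 0.0245), as it did without DTT + TUDCA replicate 2, where it was -2.0 ± 0.47 (limma, adjusted P = 0.0357). Over 19 alternative settings it was a DEG in 7, and the adjusted P ran from 0.0245 to 0.202. Against DTT the log2 fold change was 1.46 ± 0.50 (limma, adjusted P = 0.637), and 1.02 ± 0.47 without DTT + TUDCA replicate 2. In that comparison it was a DEG in 3 of 19 alternative settings, with adjusted P-values of 0.334 to 0.903 (limma).

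Traes_2BL_45DDBB56C, the fifth A-ARR gene, was too low to be tested, with a mean of 0.0591 FPKM over the 9 libraries. No fragment was counted on it in any DTT + TUDCA library, 0, 1 and 2 fragments were counted in the DTT libraries, and 8, 8 and 9 in the control libraries. Set against a floor of 3 fragments per library, its level was at least 2.33-fold lower in DTT + TUDCA than in control. Its level in DTT was 0.127 times that in control by 3 against 25 fragments, in the comparison that chose it. It was the one A-ARR gene without a higher level in DTT + TUDCA than in DTT, at a depth where such a difference was not detectable.

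Both B-ARR genes of the list, of the class that binds DNA, had fitted log2 fold changes near 0 between the treated groups. The study, by its own test on counts, reported a B-ARR among its DEGs of DTT + TUDCA vs. DTT, without its identifier in the text. Traes_3AL_9D2735F60 had 1.91, 1.88 and 2.99 FPKM in the DTT + TUDCA replicates, 3.48, 2.23 and 2.13 FPKM in the DTT replicates and 4.40, 4.2 and 5.11 FPKM in the control replicates. All treated libraries were below control, and the treated groups overlapped. Its log2 fold change was -1.20 ± 0.24 in DTT + TUDCA vs. control (limma, adjusted P = 0.0183) and -0.14 ± 0.24 in DTT + TUDCA vs. DTT (limma, adjusted P = 0.886).

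Traes_3DL_D82CA7827, the other B-ARR gene, had 1.36, 0.638 and 1.72 FPKM in the DTT + TUDCA replicates, 2.14, 0.882 and 1.10 FPKM in the DTT replicates and 2.41, 2.62 and 3.9 FPKM in the control replicates. Treated libraries were again all below control and overlapped each other. The log2 fold change in DTT + TUDCA vs. control was -1.45 ± 0.39 and met the DEG thresholds, with an adjusted P above 0.05 (limma, adjusted P = 0.0524) and below it with the replicate number as a block (limma, adjusted P = 0.0489). It was lowest in DTT + TUDCA replicate 2 among its group, and without that library it was -1.10 ± 0.35 and short of the thresholds (limma, adjusted P = 0.103), and over 19 alternative settings, in 14 of which it was a DEG, the adjusted P ran from 0.0308 to 0.174. Against DTT the log2 fold change was -0.09 ± 0.39 (limma, adjusted P = 0.959). The B-ARR genes had 18 to 266 fragments per library.

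**Figure D2:**
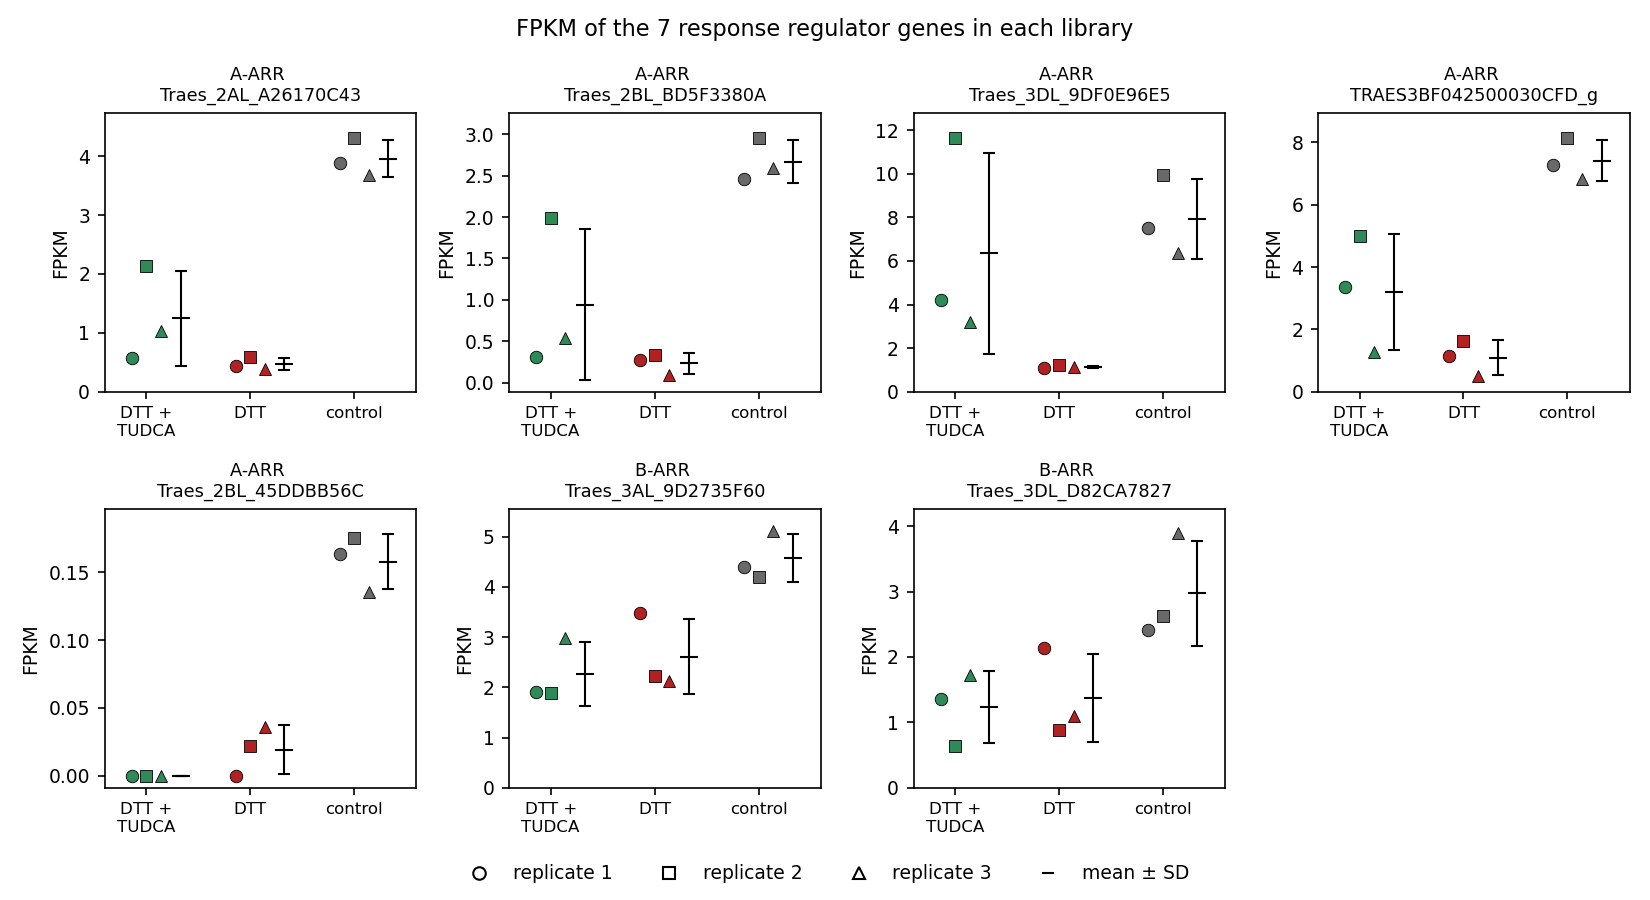
FPKM of each A-ARR and B-ARR gene in the DTT + TUDCA, DTT and control libraries, with symbols for the replicate number and bars for the mean ± SD of 3 libraries. Vertical axes differ between genes. Traes_3DL_9DF0E96E5 has 3.22 to 11.7 FPKM in DTT + TUDCA and 1.10 to 1.21 FPKM in DTT, without overlap.

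Set side by side, 2 of the 4 tested A-ARR genes and both B-ARR genes were DEGs in DTT + TUDCA vs. control, all of them lower, which makes 4 of 6 members against 7.87% of all tested genes that were DEGs in either direction and 3.5% that were lower. The members were listed for a difference from these same control libraries, so the shares over all genes are no like-for-like baseline for them. With DTT + TUDCA replicate 2 left out, 4 of 4 A-ARR genes and 1 of 2 B-ARR genes were DEGs, against 6.52% of all genes. Leaving out control replicate 2 or control replicate 3 left 2 members, with 5008 and 4858 DEGs over all genes in place of 6138. With an adjusted P under 0.05, 1 A-ARR and 1 B-ARR gene passed, against 7.76% of all genes. The DTT + TUDCA libraries lay below all control libraries, on the scaled FPKM, at 5 of the 6 tested members, all but Traes_3DL_9DF0E96E5, and at 15.7% of all tested genes. The median log2 fold change was -1.75 for the A-ARR genes and -1.32 for the B-ARR genes, and -0.02 over all tested genes.

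In DTT + TUDCA vs. DTT all 4 tested A-ARR genes had positive log2 fold changes, of 1.13 to 2.2 with a median of 1.43, and 1 of them was a DEG. Of all tested genes, 1.1% were DEGs in either direction and 0.632% were higher. On the scaled FPKM, all DTT + TUDCA libraries lay above all DTT libraries at 2 of the 4, Traes_2AL_A26170C43 and Traes_3DL_9DF0E96E5, and at 5.56% of all tested genes. For Traes_2AL_A26170C43 this hung on the scaling, since its groups overlapped on the unscaled FPKM. Its nearest libraries had 19 fragments (DTT + TUDCA replicate 1) and 18 fragments (DTT replicate 2). The corresponding values of the B-ARR genes were -0.14 and -0.09, and the median over all genes was -0.02. Without DTT + TUDCA replicate 2 the A-ARR median was 0.86 and the B-ARR median 0.10, and the same single A-ARR gene was a DEG, against 0.791% of all genes. The number of members called was 3 without DTT + TUDCA replicate 1, and 2 without DTT + TUDCA replicate 3 or DTT replicate 2. Over all genes the DEGs numbered 2182, 1136 and 829 in these settings in turn, against 857 with all libraries. The DTT libraries took part in the choice of the members, so the shares over all genes are no like-for-like baseline here either. The difference between the classes was not tested. After adjustment none of the members passed 0.05 in this comparison, and of all 78030 genes 1 did (0.00128%, limma), although 7.42% had an unadjusted P under 0.05.

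In DTT vs. control, the comparison that chose the genes, the log2 fold changes were -3.07 ± 0.41 for Traes_2AL_A26170C43, -3.34 ± 0.57 for Traes_2BL_BD5F3380A, -2.91 ± 0.43 for Traes_3DL_9DF0E96E5 and -3.02 ± 0.50 for TRAES3BF042500030CFD_g. They were -1.05 ± 0.24 for the B-ARR gene Traes_3AL_9D2735F60 and -1.36 ± 0.39 for Traes_3DL_D82CA7827. In this comparison 8.02% of all tested genes were DEGs. Calls of the members are not counted, because it chose them. The A-ARR values lay close together and those of the B-ARR genes were smaller in size.

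**Figure D3:**
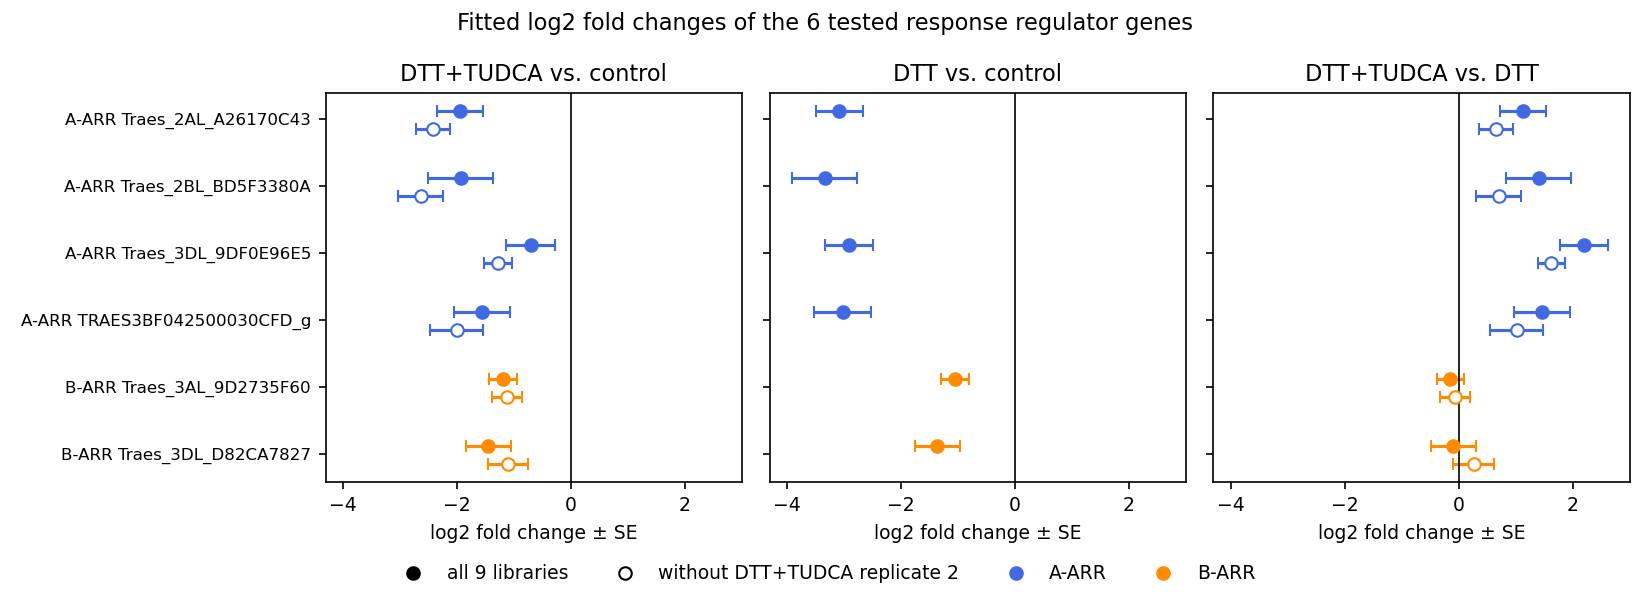
Fitted log2 fold changes (points) with their SE (bars) of the 4 tested A-ARR and 2 B-ARR genes in DTT + TUDCA vs. control, DTT vs. control and DTT + TUDCA vs. DTT. Filled points use all 9 libraries and open points leave out DTT + TUDCA replicate 2. In DTT + TUDCA vs. DTT the A-ARR genes lie between 1.13 and 2.2 and the B-ARR genes at -0.14 and -0.09.

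The composition of the A-ARR sum also differed between libraries. Traes_3DL_9DF0E96E5 made up 49.9% to 56.1% of the summed FPKM in the DTT + TUDCA libraries, against 32.0% to 52.8% in the DTT libraries and 32.5% to 39.0% in the control libraries. The 3 genes of chromosomes 2A and 2B together made up 10.4% to 25.9% in DTT + TUDCA, 23.9% to 24.8% in DTT and 29.1% to 32.7% in control. The treated groups overlapped in both shares. At each of the 4 tested A-ARR genes replicate 2 was the highest library of its group, in DTT + TUDCA, in DTT and in control alike. At both B-ARR genes DTT + TUDCA replicate 2 was the lowest of its group.

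The transcription factor table of the study lists 3 genes of the ARR-B family, namely both B-ARR genes and Traes_7AS_DECB8080D, which had 3, 1 and 2 fragments in the DTT + TUDCA libraries, 10, 15 and 18 in the DTT libraries and 5, 0 and 9 in the control libraries. It was thus highest in DTT, unlike the B-ARR genes. Its log2 fold change was -1.51 ± 0.47 in DTT + TUDCA vs. DTT, with no overlap between libraries, and just short of the thresholds (limma, adjusted P = 0.608). It was a DEG there in 5 alternative settings and not in 14. The study's text does not say whether this gene was the B-ARR among its DEGs of that comparison. Against control it was -0.31 ± 0.47 (limma, adjusted P = 0.707).

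Of the other genes of the pathway, the study's gene ontology list of DTT vs. control held 6 genes with cytokinin dehydrogenase activity, which were chosen on the same libraries. The 3 genes of chromosomes 3A, 3B and 3D were higher, and the 3 of 1A, 1B and 1D lower, in DTT + TUDCA than in control, and all 6 met the DEG thresholds, against 7.87% of all genes. Without DTT + TUDCA replicate 2, 1 of the 3 higher and 1 of the 3 lower genes did, Traes_3DL_FADFAB015 and Traes_1DL_CB562D2D8. These calls held under all 20 alternatives, whereas that of Traes_3AL_1BC9B0156 was lost in 12 of 19, that of TRAES3BF061600050CFD_g in 4 of 19, that of Traes_1AL_A2DA8A6AE in 10 of 20 and that of Traes_1BL_872B95FED in 4 of 20. The replicate block was among the alternatives that lost the calls of Traes_3AL_1BC9B0156 and Traes_1AL_A2DA8A6AE, at unchanged log2 fold changes of 1.45 and -1.56.

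Traes_3DL_FADFAB015 had 1.84, 1.51 and 2.39 FPKM in DTT + TUDCA, 3.89, 1.29 and 1.84 FPKM in DTT and 0.188, 0 and 0.0695 FPKM in control (limma on DTT + TUDCA vs. control, adjusted P = 0.00336). By 55 against 3 fragments its level in DTT + TUDCA was 22.1 times that in control, with an exact 95% interval of 7.18 to 111. That interval pools the libraries of each group and covers counting error only. Traes_3AL_1BC9B0156 had 0.339, 0.318 and 0.0839 FPKM in DTT + TUDCA, against 0.868, 0.954 and 0.862 FPKM in DTT and 0, 0 and 0.0512 FPKM in control. It was the one dehydrogenase gene that was a DEG in DTT + TUDCA vs. DTT, at a log2 fold change of -1.55 ± 0.43 (limma, adjusted P = 0.543), a call that was lost in 8 of 19 alternatives.

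TRAES3BF061600050CFD_g, the dehydrogenase gene of 3B, had a log2 fold change of 1.59 ± 0.41 in DTT + TUDCA vs. control (limma, adjusted P = 0.044). The genes of chromosome 1, Traes_1AL_A2DA8A6AE, Traes_1BL_872B95FED and Traes_1DL_CB562D2D8, were at -1.56 ± 0.46, -1.82 ± 0.49 and -2.17 ± 0.48 (limma, adjusted P = 0.0681, 0.0506 and 0.0256). For Traes_1DL_CB562D2D8 this was 1.64, 0.336 and 0.998 FPKM in DTT + TUDCA, 0.794, 2.08 and 1.77 FPKM in DTT and 4.24, 3.44 and 3.30 FPKM in control. Between DTT + TUDCA and DTT, the 6 genes had log2 fold changes of -1.55 to -0.10 with a median of -0.65. Leaving out DTT + TUDCA replicate 2, they ran from -1.76 to 0.04 with a median of -0.17, and those of Traes_1AL_A2DA8A6AE (0.04) and Traes_3DL_FADFAB015 (0.02) were no longer negative.

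**Figure D4:**
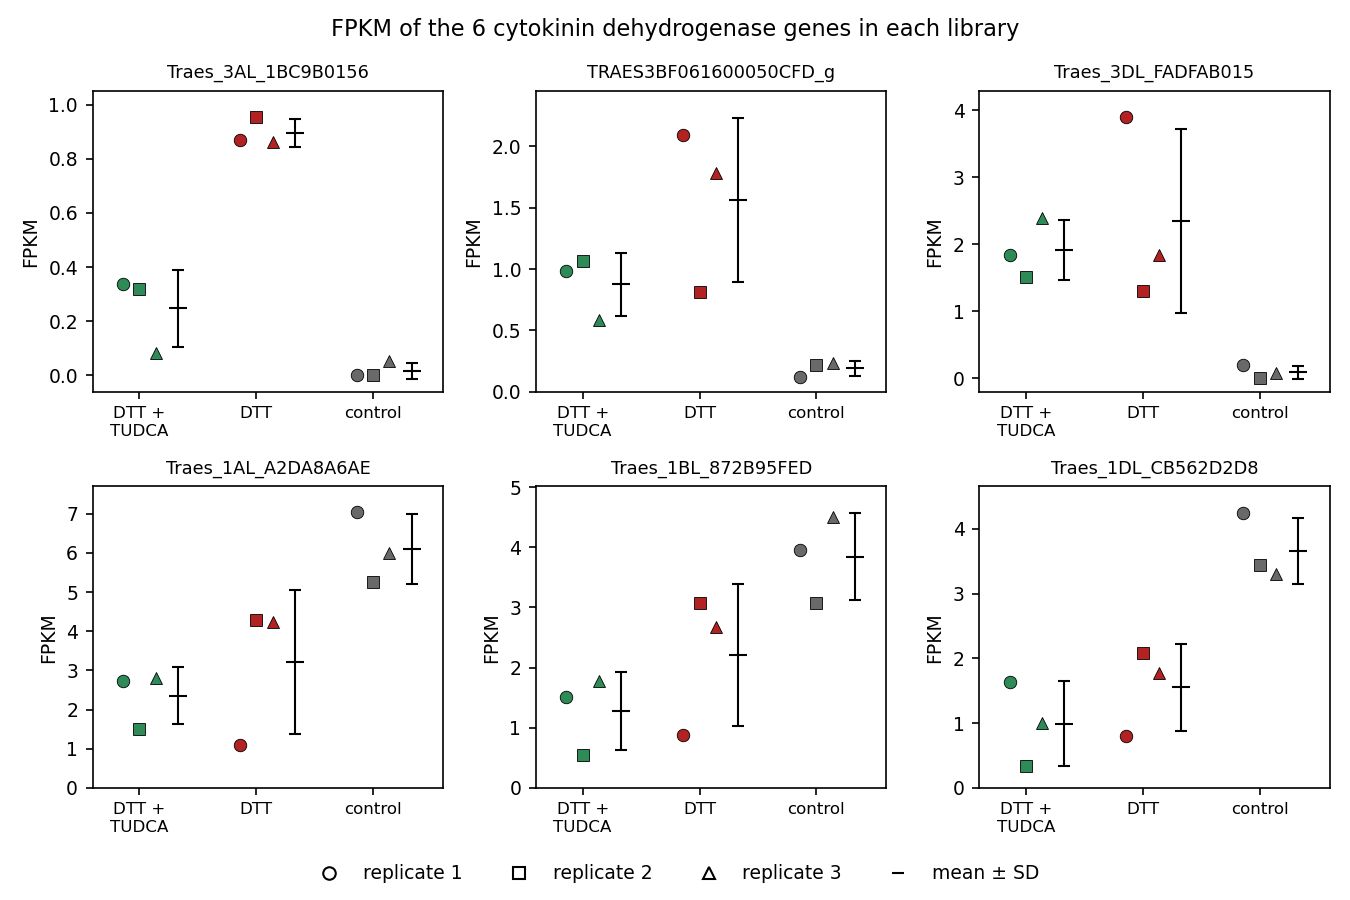
FPKM of the 6 cytokinin dehydrogenase genes in the DTT + TUDCA, DTT and control libraries, with symbols for the replicate number and bars for the mean ± SD of 3 libraries. The upper row holds the genes of chromosomes 3A, 3B and 3D, lowest on average in control, and the lower row those of 1A, 1B and 1D, highest on average in control.

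The same gene ontology list held 14 genes with phosphorelay sensor kinase activity, the class of the cytokinin receptors and other sensor histidine kinases, of which 13 were tested. In DTT + TUDCA vs. control 1 was a DEG with a higher and 4 with a lower level. Of all tested genes 7.87% were DEGs in either direction and 3.5% lower, but the kinase genes were listed for a difference from the same control libraries. Their median log2 fold change was -0.91, and the counts were the same without DTT + TUDCA replicate 2. Between DTT + TUDCA and DTT none of them was a DEG, against 1.1% of all genes, and their log2 fold changes ran from -0.78 to 0.70 (limma). The kinase gene Traes_2DL_BD9A8D711 had 0.532, 0.0987 and 0.762 FPKM in DTT + TUDCA, 0.992, 0.667 and 0.534 FPKM in DTT and 2.98, 3.11 and 5.16 FPKM in control. Its log2 fold change against control was -3.15 ± 0.49 (limma, adjusted P = 0.00578).

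Traes_3DL_304126AEE, another kinase gene, was at -1.97 ± 0.59 in DTT + TUDCA vs. control (limma, adjusted P = 0.0704), and at -1.20 without DTT + TUDCA replicate 2. It met the DEG thresholds there, but lost the call in 11 of 20 alternatives. On the other side were Traes_4BL_71E35BBC1, at 1.96 ± 0.41 (limma, adjusted P = 0.0207), and Traes_1AL_6997FB707, at 0.95 ± 0.21 and under the 2-fold limit (limma, adjusted P = 0.0256). Traes_4AL_A7E5F01FE, a gene of the receptor signalling list that is neither a kinase nor a response regulator, had 24.9, 46.4 and 37.9 FPKM in DTT + TUDCA, 24.9, 27.2 and 18.6 FPKM in DTT and 44.9, 50.5 and 53.7 FPKM in control. Its log2 fold change was 0.65 ± 0.24 in DTT + TUDCA vs. DTT (limma, adjusted P = 0.653).

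Other hormone classes of the study's list were set beside the response regulators by their medians in DTT + TUDCA vs. DTT. The median log2 fold change was 1.43 for the 4 tested A-ARR genes, 1.25 for the 5 PYR/PYL genes of the abscisic acid receptors, 1.0 for the 4 SAUR and 0.49 for the 4 AUX/IAA genes of the auxin response, and -0.12 for the 2 B-ARR genes. Without DTT + TUDCA replicate 2 these medians were 0.86, 0.67, 0.51, 0.26 and 0.10. None of the PYR/PYL, SAUR or AUX/IAA genes was a DEG in this comparison, against 1.1% of all tested genes. At that share, the lack of a DEG among so few genes says little. All these lists were chosen on DTT vs. control, and the differences between them were not tested.

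The genes outside the list whose pattern was most like that of each class were ranked by Pearson's r over the 9 libraries, among 55131 genes. For the A-ARR class they were Traes_1DS_48A4B1832 (r = 0.992), Traes_6AL_412CE3037 (r = 0.990) and Traes_2BL_E83C55617 (r = 0.987). For the B-ARR class they were Traes_3AL_D03D5E3A0 (r = 0.989), Novel07212 (r = 0.984) and Traes_6AS_DE7524DF1 (r = 0.982). These correlations describe libraries that share their treatment and their depth and are given without a P-value. Traes_1DS_48A4B1832 had 1.54, 2.35 and 1.45 FPKM in DTT + TUDCA, 1.01, 1.25 and 0.820 FPKM in DTT and 3.0, 3.51 and 3.01 FPKM in control, so that its range was narrower than that of the A-ARR genes.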

How the data were processed

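Per the labels, the authors' processing used Bowtie2 2.2.3, TopHat2 2.0.12 and HTSeq 0.6.1, and they deposited FPKM values of 130542 genes in 9 leaf libraries, without replicate pooling. The wheat genome release is not given in the sources used here. Whole fragments were recovered from the FPKM steps for all 91537 genes above 0, and implied transcript lengths were whole within 0.01 bp for 99.2%. The 9 libraries held 16334906 to 26760247 fragments on genes.

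Libraries were scaled by the median ratio over 54436 genes. The test on log2(scaled FPKM + 0.1) covered genes averaging 0.1 FPKM or more. It used limma 3.58.1 in R 4.3.3, in 1 model of 3 groups with a variance trend. The added 0.1 draws fold changes of weakly expressed genes toward 0. The study tested its own counts, which were not used here. The recovered fragments served for the limma-voom alternative and for the fragment counts and intervals given above. Python 3.11.15 was used for the remaining steps. The limma fit was tested on simulated data.

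The members and lists were chosen with earlier results of these data known. Besides the members, the named genes were the other ARR-B gene, the cytokinin dehydrogenase genes, the remaining receptor signalling gene, the 2 sensor kinase genes changed most in each direction in DTT + TUDCA vs. control, and the 3 genes most like each class. Members' chromosome arms are those in the identifiers.

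Libraries with the same replicate number deviated together in DTT + TUDCA and control, at r = 0.163, 0.181 and 0.122 across genes for replicates 1, 2 and 3. The labels name no shared batch. The replicate block is therefore given beside the results it changed in that comparison. The alternatives were another added value, another minimum, other scaling, the replicate block, no variance trend, only the 2 groups compared, limma-voom on the recovered fragments, a call by adjusted P, and leaving out each library.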

Additional observations from a re-analysis of the deposited data

How the results depend on the processing

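No direction of a called member, or of another named gene that met the thresholds, was reversed under any alternative run. The genes most like each class were not examined under the alternatives and are left out of this statement. In DTT + TUDCA vs. control 4 members met the thresholds, and 2 with unscaled FPKM or with adjusted P-values, 5 with the replicate block, and 2 to 5 with a library left out. The lowest count there came without control replicate 2 or without control replicate 3. Beside TRAES3BF042500030CFD_g, Traes_3AL_1BC9B0156 and Traes_1AL_A2DA8A6AE, the block changed no DEG call of the named genes examined there. Between DTT + TUDCA and DTT 1 member did, 2 with the replicate block, 0 with adjusted P-values, and 1 to 3 with a library left out, 3 without DTT + TUDCA replicate 1 and 2 without DTT replicate 2 or DTT + TUDCA replicate 3. Across all genes, same-numbered libraries correlated at 0.0382, 0.0409 and -0.17 in DTT + TUDCA and DTT. In DTT and control they correlated at -0.0533, -0.00214 and -0.051. The genes as a whole thus gave the replicate block no basis in these pairs of groups. At the 4 tested A-ARR genes, however, replicate 2 was the highest library of every group, as given above. The second gene added by the block in DTT + TUDCA vs. DTT was TRAES3BF042500030CFD_g. The cause of these changes was not tested.

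With 1 added before the log2, the A-ARR median was -2.06 in DTT vs. control and 0.76 in DTT + TUDCA vs. DTT. With unscaled FPKM the median of all tested genes was 0.22 in DTT vs. control, in place of -0.009. In DTT + TUDCA vs. control it was 0.16 in place of -0.017, with 4891 higher and 1651 lower DEGs in place of 3405 and 2733. The unscaled values turned the direction of no called member. Over all genes, DTT + TUDCA vs. DTT held 857 DEGs, 363 with 1 added, 456 with a minimum mean FPKM of 1 and 2182 without DTT + TUDCA replicate 1. DTT vs. control held 6255, and 3728 with 1 added, and DTT + TUDCA vs. control 6138, and 3402 with 1 added. The latter held 6276 with the replicate block, 5008 without control replicate 2 and 4858 without control replicate 3.

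Depth also limits the A-ARR values, since the tested A-ARR genes had 4 to 22 fragments in each DTT library.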
